A study of Mus musculus with 6 samples.

Results

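BMP ligands and the proteins that hold them in check were followed probe set by probe set in 2T3 mouse pre-osteoblasts in 2 groups of a rotating wall vessel experiment, static and rotated. The 10 genes were the ligands Bmp2, Bmp4 and Bmp6 and the antagonists or modulators Fst, Fstl1, Grem1, Nog, Chrdl1, Twsg1 and Bambi. They are 10 of 18193 named genes on the array. The platform's probe table gave 1 of these symbols, and no other, to 18 of the 45101 probe sets on the array. Of the 18, 15 probe sets of 7 genes were bright enough to be tested, while the only probe sets of Bmp2, Bmp6 and Nog were too dim. Bambi is a membrane protein, so the heading of secreted antagonists covers the other 6 antagonist genes only.

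Total RNA of 3 static and 3 rotated samples was hybridised to 1-colour Affymetrix arrays after 3 days, at passage 8 to 10. A rotating wall vessel turns its culture medium steadily about a level axis so that cells stay in free fall relative to the fluid, and serves as a ground model of microgravity. 2T3 is a clonal line from the calvaria of mice that carry a viral T antigen under the Bmp2 promoter, so all samples of both groups carry that transgene, and the results describe 1 clone. The titles decided the groups. For static 2 and static 3 the source field speaks of simulated microgravity although their titles say static. Titles of the other group carry only the letter R, taken here as rotated. Titles and the simulator field place all 6 samples, static ones included, under the rotating wall vessel, and the labels do not describe how the static cells were held. The labels name no separate cultures or flasks, so the p-values below reflect sample-to-sample spread that could be purely technical.

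Bone morphogenetic proteins are secreted dimers that bind paired type I and type II serine/threonine kinase receptors, whose activity phosphorylates Smad1, Smad5 and Smad9 and switches on genes such as Id1 and Id3. In bone they drive mesenchymal cells towards the osteoblast fate. Secreted antagonists bind the ligands outside the cell and keep them from the receptors, and several of them are themselves switched on by BMP signalling.

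The arrays were alike in most respects, with 2 exceptions. Rotated 1 had a 3' over 5' signal ratio of the actin controls, a measure of RNA integrity and labelling, of 3.21. Rotated 2 and rotated 3 had 1.57 and 1.48, and the static arrays 1.29 to 1.37. Every rotated ratio lay above every static one, so models with the actin ratio cannot fully separate it from the group. Static 1 had a median deposited signal of 130.1, against 70.0 to 88.8 on the others. Of the osteoblast lineage markers, 10 of 11 were on the array and all 10 were tested. After quantile scaling all 10 stood lower in the rotated samples, 5 of them at an unadjusted p under 0.05 in limma. Of all tested genes 46.7% were lower and 3.74% were lower with such a p. As deposited, Dlx5, Cdh11, Sp7 and Col1a1 of the 5 did not overlap between groups. Col1a2 did (24604.8 to 29556.8 static, 22048.3 to 26251.0 rotated). So did Prrx1, without such a p (13811.8 to 15354.2 static, 13790.7 to 18265.4 rotated). The 5 had been picked by p on these same arrays, so a lack of overlap among them is no separate support. After scaling, 7.27% of all tested probe sets had no overlap and were lower, and that share was not computed for deposited values. Rotated 1 was lowest for Dlx5 (216.7) and Col1a1 (3316.2). Of the other markers, Alpl (34.7 to 103.6 over all arrays), Ibsp (28.6 to 189.2) and Pth1r (17.4 to 370.4) had no such p. Each reached below a signal of 45.7, to which the filter's threshold corresponds. The summed signal of the 10 markers came mostly from Col1a2, Prrx1, Cdh11 and Col1a1. It was 65206 to 66980 in the static and 52240 to 62273 in the rotated samples. The part of this shift in the results below was not tested, and in bulk RNA fewer cells of a kind and less RNA per cell cannot be told apart. Markers of other cell types passed the filter in part: 4 of 5 chondrocyte, 3 of 5 muscle, 4 of 5 leukocyte and 1 of 5 endothelial markers, and 1 of 4 adipocyte markers on the array. Fabp4 (2439.0 to 4697.7) and Col2a1 (444.4 to 2387.4) were the brightest, while Sox9 reached 346.2, Csf1r 261.7, Ckm 142.9 and Kdr 107.1. Pecam1, Cdh5, Ptprc, Adipoq, Myod1 and Myog lay below the filter. The summed signal of the leukocyte markers was 424.9 to 738.9 in the static and 470.6 to 665.4 in the rotated samples. No value in the table was 0.

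The question was which transcripts differ after 3 days between static culture and simulated microgravity. Among the 15 tested probe sets, 14 had a lower mean in the rotated samples and 1 a higher mean, with a median log2 difference of -0.91. Chrdl1, Bmp4 and Fst had the largest negative differences among the tested probe sets, from -2.76 to -1.18. Every rotated value lay below every static value at all of their probe sets, which after scaling was also so for both probe sets of Fstl1. In limma, 0 of the 15 had an adjusted p under 0.05, as did 0 (0%) of the 27022 probe sets tested on the array, so no gene is called changed here. At an unadjusted p under 0.05 there were 8 of 15, all lower: 4 of Chrdl1, 2 of Fst, and 1 each of Bmp4 and Fstl1. The share over all tested probe sets was 3.9% in the lower direction, 4.34% in the higher and 8.24% in both. With the replicate number as a block 12 of 15 had such a p (14.6% of all) and with array weights 10 of 15 (19% of all), and at an adjusted p under 0.05 there were 0 of 15 with the block (0.0074% of all) and 1 with array weights (0.0814%). After scaling, 9 of the 15 had no overlap between groups, all lower, against 7.27% of all tested probe sets in that direction. Probe sets of a gene measure the same transcripts and are not independent, and the 8 came from 4 genes.

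**Figure D1:**
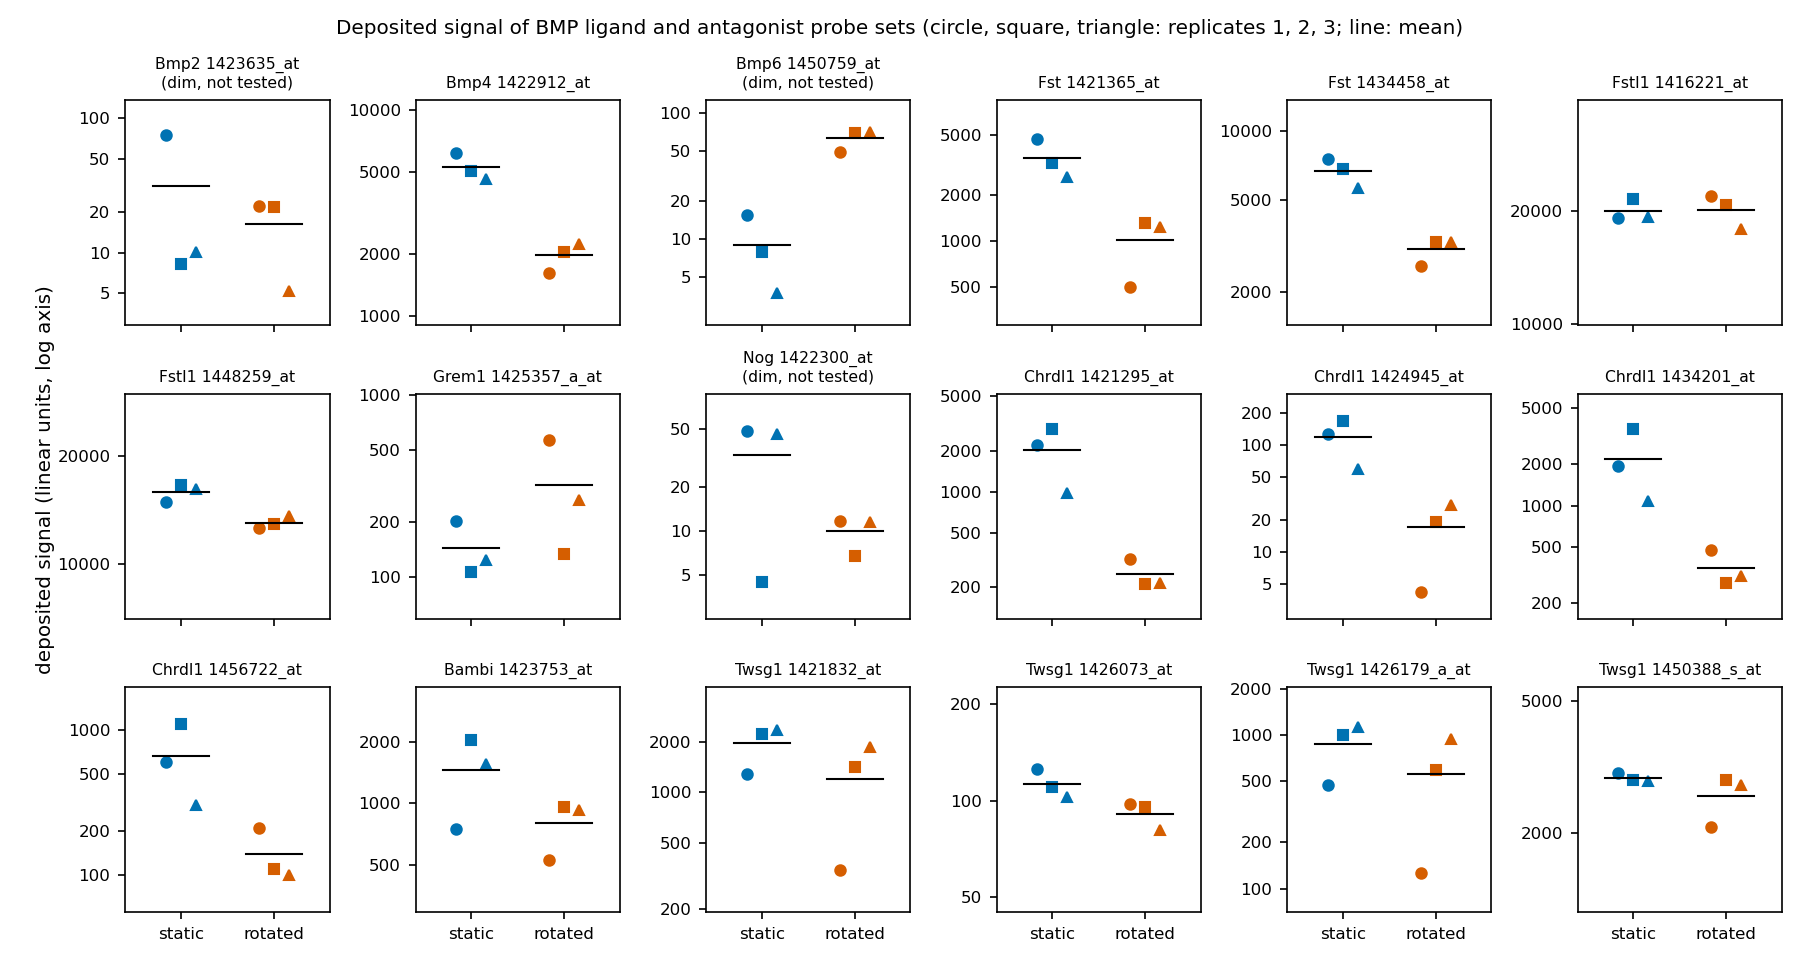
Deposited signal (linear units on a log axis) of the 18 probe sets in the 3 static (blue) and 3 rotated (orange) samples. Circles, squares and triangles are replicates 1, 2 and 3, and the line is the group mean. The rotated points of Bmp4, both Fst and all 4 Chrdl1 probe sets lie below all static points, and those of the dim Bmp6 probe set lie above them.

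Among the ligands, Bmp4 was the only one measured well above the dim range. BMP4 is a ligand of the early mesenchyme and of osteoblasts and acts on the cells that make it as well as on their neighbours. Its probe set (1422912_at) read 6173.8, 5034.0 and 4610.9 in static 1, static 2 and static 3, and 1625.3, 2056.3 and 2245.9 in rotated 1, rotated 2 and rotated 3. The groups were well apart, and the highest rotated value was under the lowest static one. The log2 difference (rotated minus static, after quantile scaling) was -1.44 ± 0.21 (SE, n = 3 per group), a 2.72-fold lower level with a 95% interval of 1.95 to 3.79. In limma the adjusted p was 0.299, the smallest reached by any probe set on the array, and Bmp4 ranked 4th by p among probe sets lower in the rotated samples. The difference was -1.33 without rotated 1, and -1.16 ± 0.17 without rotated 1 and static 1 together. With array weights, which put most weight on static 3 (3.32) and rotated 2 (2.55), Bmp4 passed (-1.25 ± 0.15, adjusted p 0.0385), as 0.0814% of tested probe sets did. Over all alternatives its adjusted p ran from 0.0385 to 1.00.

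Bmp2 and Bmp6 could not be tested. Bmp2, whose promoter drives the transgene of this line and whose protein is a strong bone inducer, read 75.6, 8.2 and 10.1 in the static samples and 22.4, 21.8 and 5.2 in the rotated ones (1423635_at). These values overlapped and lay near the bottom of the scale, so they give no direction. Bmp6, a ligand made by bone and liver cells, read 15.5, 7.8 and 3.7 in the static and 49.0, 69.6 and 70.1 in the rotated samples (1450759_at). The 3 rotated values of Bmp6 lay above the 3 static ones, the opposite side from Bmp4. Its mean was under the filter's threshold, which corresponds to a signal of 45.7, so it had no test in the main analysis. Without the filter the log2 difference was 1.79 ± 0.39 and the adjusted p in limma 0.556 (unadjusted 0.000926). Since the static values are near background, the true fold is not known.

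The promoters of Bmp4, Bmp6 and Grem1 are printed because Bmp4 was lower while Bmp6 and Grem1 had higher means. Each is the 250 bases before the start of the RefSeq gene model in GRCm38.p6, on the gene's strand, from chr14:46390670-46390919 (minus strand), chr13:38345466-38345715 (plus strand) and chr2:113758649-113758898 (minus strand). Capitals mark matches on either strand to the CAGA core of Smad3 and Smad4 (CAGAC), a GC-rich Smad core (GGCGCC), the AP-1 site (TGANTCA), the TEAD site (GGAATG), the E-box (CACGTG), the GC box (GGGCGG) and the TATA box (TATAAA).
Bmp4: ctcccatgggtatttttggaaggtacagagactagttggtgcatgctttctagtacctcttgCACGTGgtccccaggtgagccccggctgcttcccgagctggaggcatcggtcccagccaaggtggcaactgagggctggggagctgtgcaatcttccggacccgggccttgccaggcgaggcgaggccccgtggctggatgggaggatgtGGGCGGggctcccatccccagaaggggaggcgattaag
Bmp6: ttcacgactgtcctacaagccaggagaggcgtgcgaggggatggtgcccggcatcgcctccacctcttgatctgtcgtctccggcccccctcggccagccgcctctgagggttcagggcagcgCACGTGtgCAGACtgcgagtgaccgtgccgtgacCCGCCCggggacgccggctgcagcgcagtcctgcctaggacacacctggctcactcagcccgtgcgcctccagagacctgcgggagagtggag
Grem1: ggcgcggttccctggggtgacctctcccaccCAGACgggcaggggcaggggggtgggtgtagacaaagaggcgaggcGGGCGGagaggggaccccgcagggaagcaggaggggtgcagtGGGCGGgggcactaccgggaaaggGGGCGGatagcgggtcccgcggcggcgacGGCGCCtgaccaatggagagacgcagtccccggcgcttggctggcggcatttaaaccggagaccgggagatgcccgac
No match overlapped another in these 3 windows. Bmp4 and Bmp6 each held 1 E-box, present in 6.02% of the 32851 RefSeq promoter windows of this length, and Grem1 held none. Bmp6 and Grem1 each held 1 CAGAC, found in 42.2% of windows, while the Bmp4 window held none. Grem1 also held 1 GGCGCC (9.59% of windows). The GC box occurred once in Bmp4, once in Bmp6 and 3 times in Grem1 (32.7% of windows), and TGANTCA (6.75%), GGAATG (12.6%) and TATAAA (12.4%) in none of the 3. A match describes letters and is no evidence that a factor binds. RefSeq promoters were listed for 5 of the 10 genes. Among these, the Twsg1 window held 2 CAGAC and the Fstl1 window none. All probe sets of Twsg1 and Fstl1 had lower means in the rotated samples after scaling.

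Chrdl1 had the largest differences of the 10 genes. Chordin-like 1 is a secreted protein with the cysteine-rich repeats of chordin that binds BMP4 and other BMPs and blocks their access to receptors. The probe set 1421295_at read 2219.9, 2905.9 and 978.3 in static 1 to static 3 and 320.7, 210.6 and 215.4 in rotated 1 to rotated 3. Static 3 was the lowest static sample and still stood above all rotated samples. The log2 difference was -2.76 ± 0.41, a 6.76-fold lower level (95% interval 3.59 to 12.7), with adjusted p 0.299 in limma and rank 5 by p among lower probe sets.

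The other 3 Chrdl1 probe sets gave the same picture. Probe set 1434201_at read 1923.2, 3537.7 and 1071.9 in the static and 475.2, 275.7 and 311.9 in the rotated samples, a log2 difference of -2.38 ± 0.42 (5.20-fold, adjusted p 0.347 in limma). Probe set 1456722_at read 600.9, 1097.2 and 304.1, then 211.6, 110.0 and 98.9, a difference of -1.87 ± 0.47 (adjusted p 0.572 in limma). Within both, static 2 was highest, static 3 lowest among the static samples, and the groups did not overlap. Probe set 1424945_at read 128.8, 170.0 and 60.6, then 4.2, 19.2 and 27.8 (-1.76 ± 0.52, adjusted p 0.593 in limma). Its rotated mean lay under the filter's threshold, so its true fold is not known.

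The Chrdl1 result did not rest on rotated 1. Without that array the differences of 1421295_at, 1434201_at and 1456722_at were larger in size, -2.99, -2.65 and -2.19, and that of 1424945_at was -1.40. The spread came more from the static side: leaving out static 3 moved 1421295_at to -3.23 and leaving out static 2 moved it to -2.45. With the actin ratio added to the model the 4 differences were -3.09, -1.17, -2.76 and -2.32, in the order 1421295_at, 1424945_at, 1434201_at, 1456722_at, smaller in size for the dim 1424945_at and larger for the rest. With the replicate number as a block the adjusted p of 1421295_at was 0.121, and over all alternatives it ran from 0.0573 to 1.00.

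**Figure D2:**
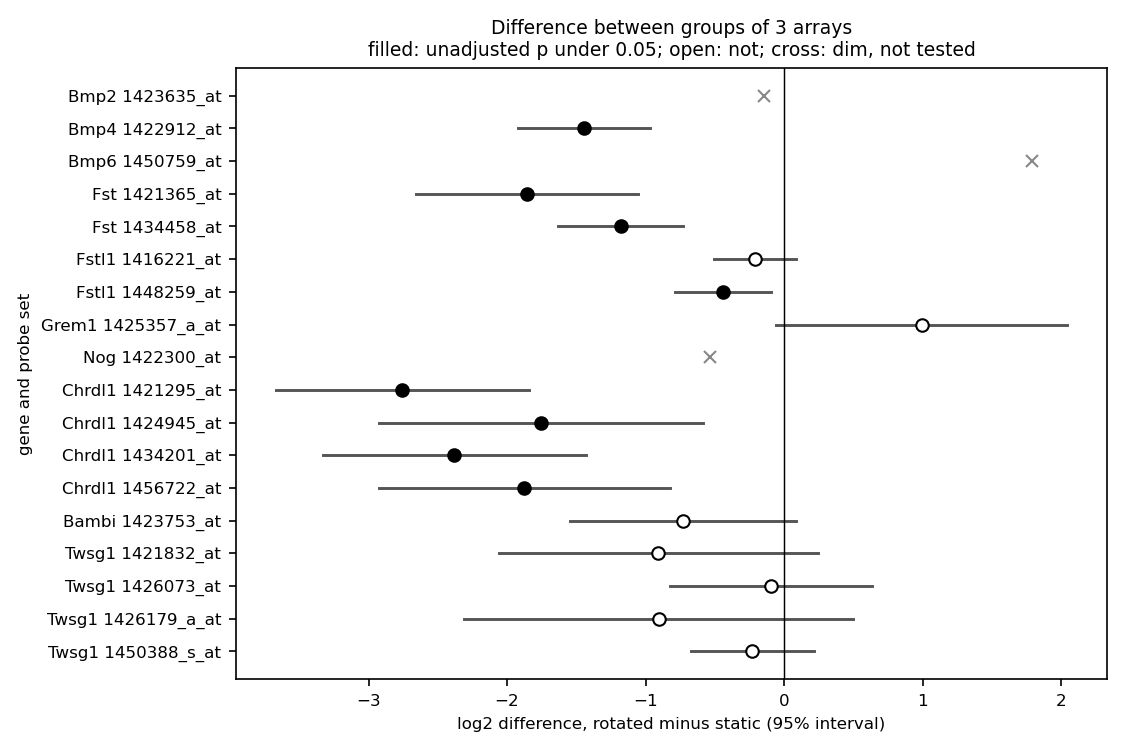
Log2 difference between the rotated and static group means of each probe set (points) with limma's 95% interval (bars), 3 arrays per group. Filled points have an unadjusted p under 0.05, and crosses mark the 3 dim probe sets without a test. Intervals of all Chrdl1, Fst and Bmp4 probe sets lie left of 0, and those of Grem1, Bambi and Twsg1 cross it.

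Follistatin (Fst) was lower at both of its probe sets. Follistatin is a secreted protein that binds activins almost irreversibly and several BMPs more weakly. The probe set 1434458_at read 7537.4, 6825.6 and 5675.0 in the static and 2588.2, 3284.9 and 3313.3 in the rotated samples, 2.27-fold lower (log2 difference -1.18 ± 0.20, adjusted p 0.314 in limma). The probe set 1421365_at read 4704.4, 3266.6 and 2634.4, then 501.6, 1308.9 and 1230.2, a 3.62-fold lower level (-1.86 ± 0.36, adjusted p 0.460 in limma). All rotated values of both were below all static values, and rotated 1 was the lowest at each. Without static 1 and rotated 1 the differences were -0.92 ± 0.17 and -1.21 ± 0.20, which brought the second probe set down by more than 1.5 times on the linear scale.

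Follistatin-like 1 (Fstl1), a secreted glycoprotein with a follistatin domain that has been described as a BMP4-binding protein, gave a divided answer. Both of its probe sets list the same source transcript. Probe set 1448259_at read 14939.3, 16653.8 and 16183.5 in the static and 12593.7, 12887.3 and 13606.7 in the rotated samples, a log2 difference of -0.44 ± 0.15 (1.35-fold, adjusted p 0.593 in limma). Probe set 1416221_at read 19168.4, 21637.3 and 19344.6, then 21976.3, 20775.8 and 17907.1. Those deposited values overlapped, and the difference of -0.21 ± 0.13 (interval -0.50 to 0.09) turned to 0.0091 with the values as deposited and to 0.14 with median centring. In those 2 settings 1448259_at kept its sign but not its unadjusted p under 0.05. It was at -0.29 (unadjusted p 0.130 in limma) with the values as deposited and at -0.15 (0.641) with median centring. The data therefore give Fstl1 at most a small shift that depends on the scaling, with no direction at 1 of its 2 probe sets.

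Twisted gastrulation (Twsg1) binds both BMPs and chordin and can hinder or help the ligand depending on its partners. Its 4 probe sets did not act alike. Probe set 1450388_s_at read 3041.4, 2900.0 and 2874.1 in the static and 2088.9, 2899.0 and 2793.2 in the rotated samples (log2 difference -0.23 ± 0.20). Probe set 1421832_at, which lists the same source transcript, read 1291.2, 2232.9 and 2352.6, then 345.4, 1416.1 and 1867.7 (-0.91 ± 0.51). Relative to the static mean, rotated 1 stood at -2.25 on the log2 scale at 1421832_at and at -0.52 at 1450388_s_at.

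The probe set 1426179_a_at followed the same course, with 475.6, 993.5 and 1132.7 in the static and 126.2, 592.9 and 946.2 in the rotated samples (-0.91 ± 0.62). The dim probe set 1426073_at read 125.3, 110.4 and 102.8, then 97.5, 95.4 and 80.8 (-0.10 ± 0.33), and had the sign turned (0.013) without static 2. None of the 4 had an unadjusted p under 0.05. Rotated 1 was also the array with the actin ratio of 3.21. Without rotated 1 the differences of 1421832_at and 1426179_a_at were -0.24 ± 0.29 and -0.11 ± 0.40, and with the actin ratio added to the model they were 0.14 ± 0.30 and 0.34 ± 0.41. No direction can be given for Twsg1.

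**Figure D3:**
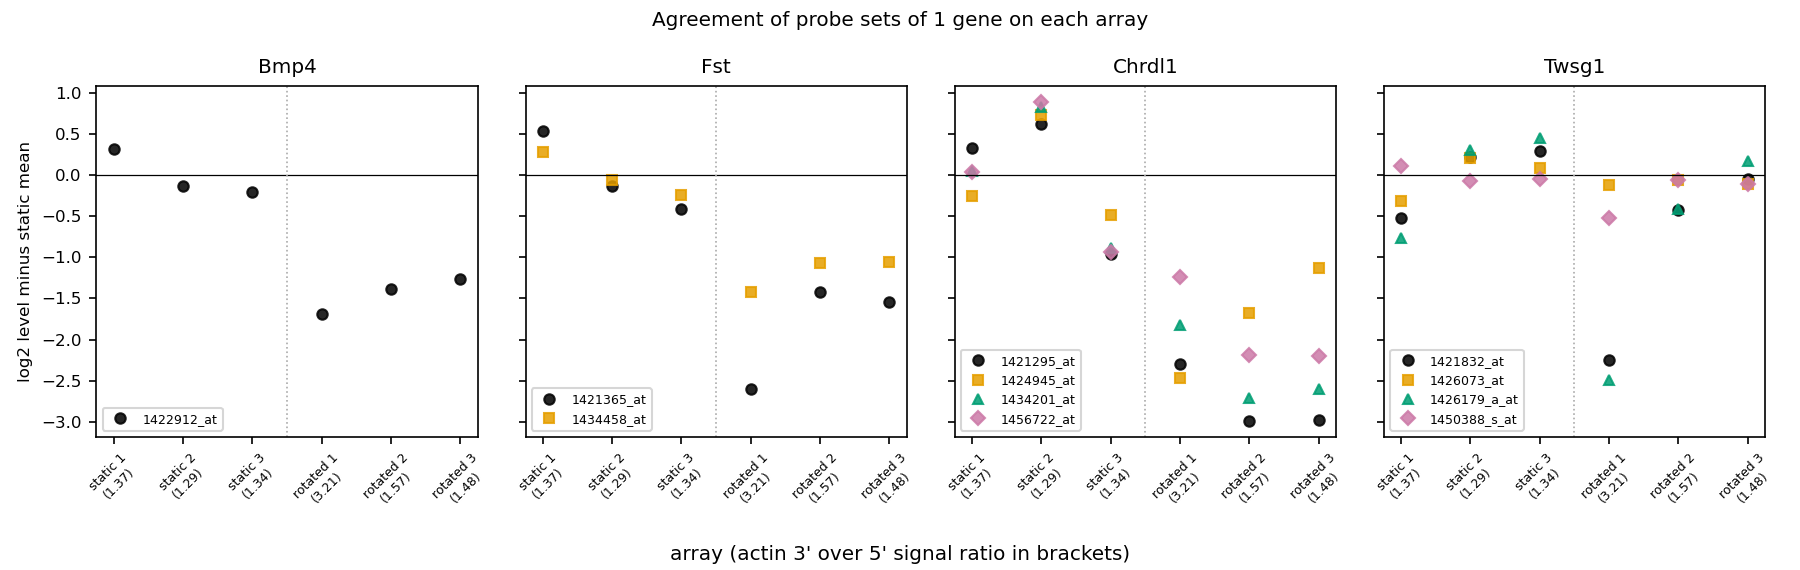
Log2 level of each probe set of Bmp4, Fst, Chrdl1 and Twsg1 minus its static mean, on each of the 6 arrays, with the actin 3' over 5' ratio of the array in brackets. The 4 Chrdl1 probe sets are low in all rotated samples, whereas 2 of the 4 Twsg1 probe sets are low mainly in rotated 1 (-2.25 and -2.49).

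Grem1 was the only tested probe set with a higher mean in the rotated samples. Gremlin 1 is a cystine-knot antagonist that binds BMP2, BMP4 and BMP7. It read 203.4, 106.5 and 124.4 in the static and 562.6, 134.4 and 265.2 in the rotated samples (1425357_a_at). Rotated 1 was high and rotated 2 lay within the static range. The log2 difference of 0.99 ± 0.47 (interval -0.06 to 2.05, adjusted p 0.609 in limma) was 0.46 ± 0.36 without rotated 1 and 0.20 ± 0.39 with the actin ratio added to the model.

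Bambi, a receptor-like membrane protein without a kinase domain that blocks BMP and TGF-beta receptors and is itself a BMP target, read 747.7, 2042.8 and 1546.3 in the static and 527.4, 953.2 and 927.9 in the rotated samples. Static 1 lay inside the rotated range, and the other static samples lay above it. The log2 difference was -0.73 ± 0.36 (interval -1.55 to 0.09, adjusted p 0.610 in limma). It was -1.13 ± 0.29 without static 1, the array with the high median signal, -0.42 without static 2 and -0.52 without rotated 1. Noggin (Nog), the high-affinity antagonist of BMP2 and BMP4, was too dim to test, at 48.2, 4.5 and 46.4 in the static and 11.7, 6.7 and 11.5 in the rotated samples, and the groups overlapped.

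**Figure D4:**
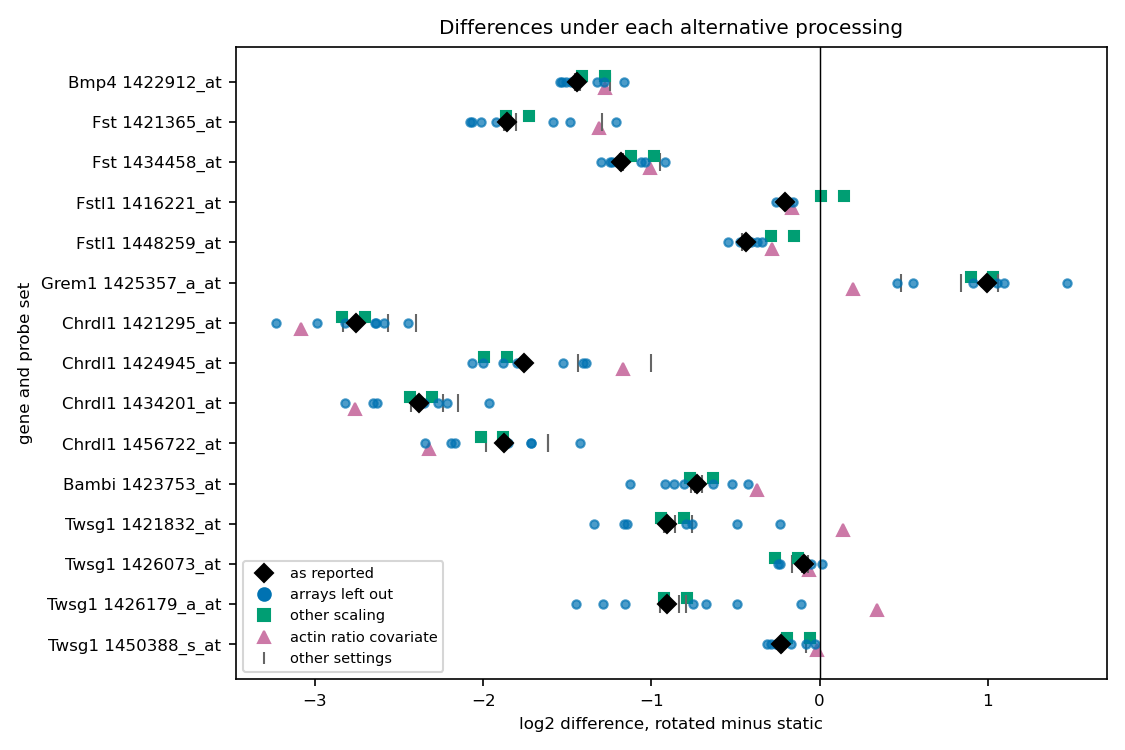
Log2 difference (rotated minus static) of the 15 tested probe sets as reported (diamonds) and under each alternative: arrays left out, other scaling, the actin ratio in the model and the other settings. Bmp4, Fst and Chrdl1 stay below 0 throughout, between -3.23 and -0.92, while probe sets of Fstl1 and Twsg1 reach both sides of 0.

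The profile of Bmp4 over the 6 arrays was set against every other tested probe set with 1 gene symbol. The measure was the mean absolute gap in log2 level after centring each on its own mean. The nearest probe sets outside the 10 genes were those of Bdnf, a neurotrophin (gap 0.133), Foxn3, a forkhead repressor (0.144), and Ccn1, a matricellular protein (0.148), with log2 differences of -1.21, -1.22 and -1.66. The Fst probe set 1434458_at had a gap of 0.132, as small as any of these, and the Fst probe set 1421365_at had 0.266. The Chrdl1 probe sets had gaps of 0.437 to 0.704, and the median over all such probe sets outside the 10 genes was 0.747. A small gap over 6 arrays describes a shared shape and says nothing of shared control.

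The rest of the pathway was followed with 1 probe set per gene, and none of these genes had an adjusted p under 0.05 in limma (0% of 12554 tested genes). Of all tested genes 46.7% were lower, 3.74% at an unadjusted p under 0.05, with a median of 0.032. The list of other ligands also held Bmp1, which is not a ligand of the family. Of its 23 genes 8 were tested, 5 lower (Bmp1 included) and 3 higher. The median was -0.22, with none at an unadjusted p under 0.05. The smallest p belonged to the inhibin subunit genes Inha (0.60 ± 0.32) and Inhbb (-0.54 ± 0.34) and to Bmp1 (-0.39 ± 0.23), a metalloprotease that cuts procollagen and chordin. The other extracellular binding proteins and modulators stood lower for 11 of 14 tested genes, median -0.28, 2 of them at an unadjusted p under 0.05. These were the proteoglycan gene Dcn (-0.44 ± 0.12, with its other probe set on the opposite side) and Fstl4 (-1.21 ± 0.53, its rotated mean under the filter's threshold). Dcn was at -0.17 (unadjusted p 0.449 in limma) with the values as deposited and at -0.04 (unadjusted p 0.899 in limma) with median centring, and the list's count of 2 was 0 and 1 in those settings. Bgn stood at -0.31 ± 0.16 and turned to 0.050 with median centring.

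Of the receptors 6 of 10 tested were lower and 4 higher, median -0.15, and Acvr1, a type I BMP receptor, alone had an unadjusted p under 0.05 (-0.67 ± 0.25, with 1 of its 2 other probe sets on the opposite side). Acvr1c and Acvrl1 stood at -0.82 ± 0.43 and -0.96 ± 0.54, with rotated means under the threshold. Without rotated 1 Acvr1 was at -0.42 (unadjusted p 0.0680 in limma), which left 0 of 10 receptors with such a p, and Acvrl1 was at -0.37. With median centring 5 of 10 receptors were lower, the median was 0.0016 and Acvr1 was at -0.56 (unadjusted p 0.213 in limma). Smads and their regulators were lower for 9 of 11, median -0.24, none at an unadjusted p under 0.05. Smad3, which serves the TGF-beta branch, stood at -0.38 ± 0.19, the inhibitory Smad6 at -0.87 ± 0.39 and the repressor Skil at 0.46 ± 0.25, with its other probe set on the opposite side. Smad6 was at -0.41 without rotated 1.

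Known BMP targets were lower for 11 of 12 tested genes, with a median of -0.77, and 3 had an unadjusted p under 0.05, all lower. The lists overlap at the same probe sets. Dlx5 and Sp7 were counted among the osteoblast markers too, and Smad6 and Smad7 among the Smads and regulators, so the counts are not separate. Id3, an inhibitor of helix-loop-helix factors, read 11592.3, 10458.8 and 12240.1 in the static and 1817.3, 8209.6 and 7076.8 in the rotated samples (-1.33 ± 0.48). The osteoblast transcription factor genes Dlx5 and Sp7 stood at -1.08 ± 0.32 and -0.84 ± 0.34, and Id1 and Id2 at -1.17 ± 0.60 and -0.88 ± 0.40. Rotated 1 was the lowest array for Id1, Id2 and Id3. Without rotated 1 Id3 was at -0.65 ± 0.17, Id1 at -0.34 ± 0.27, Id2 at -0.57 ± 0.40 and Dlx5 at -0.73 ± 0.23. Sp7 was at -0.81 ± 0.38, with an unadjusted p of 0.0667 in limma. Without rotated 1 the median of the targets was -0.28 with 10 of 12 lower, and without rotated 1 and static 1 together it was -0.58 with 10 of 12 lower. With the actin ratio added to the model 7 of 12 were lower, with a median of -0.09. The count of 3 targets at an unadjusted p under 0.05 in limma was 0 in that setting and 1 with median centring. It was 8 with the replicate block, where 14.6% of all tested probe sets had such a p in either direction.

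**Figure D5:**
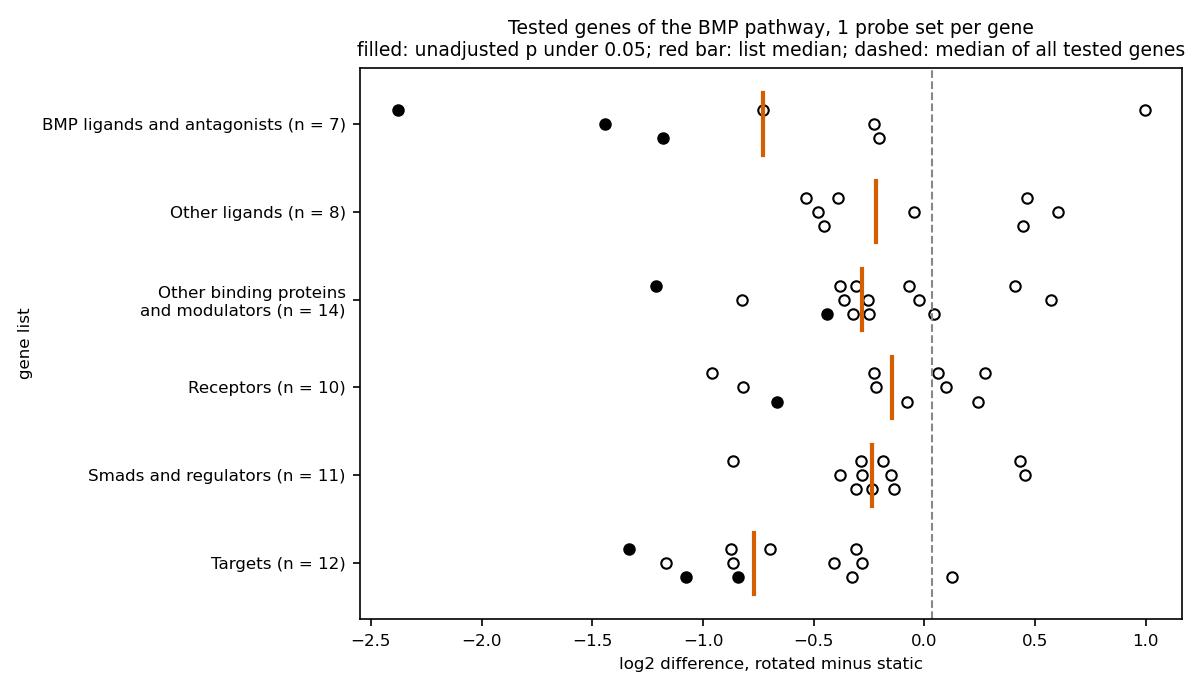
Log2 difference (rotated minus static) of each tested gene, 1 probe set per gene, for the BMP ligands and antagonists and for the other gene lists of the pathway. Filled points have an unadjusted p under 0.05, red bars are list medians and the dashed line is the median of all 12554 tested genes (0.032). The largest negative value among all lists is that of Chrdl1, and the targets have the lowest median among the other lists, -0.77.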

How the data were processed

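The authors deposited a linear intensity for each probe set on each array. The summary software is not given in the sources used here. With 2% trimmed at both ends, the deposited intensities average 500 on all arrays, so they had been scaled to a common target. Detection calls were not used here.

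An offset of 16.6, the 20th percentile of the table, was added before log2, which shrinks differences of dim probe sets. Quantile scaling followed because array medians differed by 85.9% (tolerance 10%). Control probe sets (64) were dropped, and probe sets with a mean under the 40th percentile were not tested. The platform's probe table, updated through RefSeq gene identifiers (GRCm38.p6), named 1 gene for 34945 probe sets and several for 932, and left 9160 unnamed here. The group test was limma's (version 3.58.1, R 4.3.3), two-sided, with lmFit and a trended eBayes. Its p-values were adjusted by Benjamini-Hochberg over 27022 probe sets, a step tested on simulated data. In 20 simulated runs with 200 changed probe sets each, 3.25% of 2-fold and 39% of 4-fold changes had an adjusted p under 0.05. Most changes of these sizes were thus missed in the simulation. With 6 arrays, their number limits the precision.

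The numbers shared by static and rotated samples in the labels may pair them. Deviations from the group means correlated at 0.196, 0.313 and 0.334 for same-numbered pairs and at -0.186 to -0.0941 for others, and the meaning of the numbers is not stated in the labels. The unblocked analysis was used, with the replicate block as an alternative. The other alternatives were the scaling, offset, filter, trend, robust and array-weight settings and arrays left out; the actin covariate and leaving out static 1 and rotated 1 together were chosen after seeing the data.

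Named were all 10 genes; from each pathway list the 3 genes with the smallest p, plus Id1, Id2, Id3 and Smad6; and the 3 probe sets nearest to Bmp4. The genes, lists and motifs were chosen with earlier results of these data known. Marker lists named osteoblast, chondrocyte, adipocyte, muscle, leukocyte and endothelial genes. Of the chondrocyte markers 4 were tested (2 lower), of the adipocyte markers 1 (lower), of the muscle markers 3 (2 lower), of the leukocyte markers 4 (1 lower) and of the endothelial markers 1 (lower).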

Additional observations from a re-analysis of the deposited data

How the results depend on the processing

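Over the alternatives there were 270 values of the 18 probe sets of the 10 genes. Of these, 264 kept their direction and side of the adjusted threshold, 1 passed it (Bmp4 with array weights) and 5 turned sign. The 264 include Bmp2, Bmp6 and Nog without the filter, which had no main test to be set against. The filter, trend, robust and block settings leave a log2 difference unchanged, so no sign could turn there. Those that turned were Fstl1 1416221_at with the values as deposited (0.0091) and with median centring (0.14), Twsg1 1426073_at without static 2 (0.013, with a range of -0.25 to 0.013 when 1 array was left out), and Twsg1 1421832_at and 1426179_a_at with the actin ratio in the model (0.14 and 0.34). Among context genes Bgn turned with median centring (0.050) and Id1 with the actin covariate (0.094). The count of the 10 genes' probe sets at an unadjusted p under 0.05, 8 of 15, was 7 to 10 with 1 array left out, 12 with the replicate block and 6 with the actin covariate. Over all probe sets, limma called 0 at an adjusted p under 0.05 (2227 at an unadjusted p under 0.05), 22 with array weights and 2 with the replicate block (0.0074% of probe sets). The block changed no call of the 10 genes. The unadjusted count was 5139 with array weights, 3955 with the block (14.6%), 1352 with median centring and 701 with the actin covariate, and 1092 (without rotated 1) to 3364 (without rotated 3) with 1 array left out. The lower direction took 1053 of 2227 calls, 1179 of 2142 with the values as deposited and 432 of 1352 with median centring. With the filter at the 60th percentile fewer genes were tested. Lower then were 3 genes of the ligand list, Bmp1 included, and 6 other binding proteins. With the actin covariate 7 targets were lower. The causes of these moves were not tested, other than the smaller number of genes under the stricter filter. Signal near background limits Bmp2, Bmp6 and Nog.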
